A study of Mus musculus with 12 samples.

Results

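The miR-15 and miR-16 family was followed in the prefrontal cortex of mice as 5 mature miRNAs, namely mmu-miR-15a-5p, mmu-miR-15b-5p, mmu-miR-16-5p, mmu-miR-195a-5p and mmu-miR-497a-5p (written without the species prefix from here on). They were taken by name from the rows of known mature miRNAs, of which 1374 were listed in at least 1 library, and all 5 were present in all 12 libraries. Small RNA of 18 to 30 nt was sequenced from adult male C57BL/6 mice trained for conditioned place preference, a test of how strongly an animal seeks a place that was paired with a drug. The 4 groups were saline+saline (SS), cocaine+saline (CS, 20 mg/kg of cocaine i.p.), MET+saline (MS, L-methionine s.c. at 1 g/kg in 2 injections per day for 10 days) and MET+cocaine (MC, the same methionine and cocaine together). Each group had 3 libraries, and each library held RNA pooled from 2 animals, taken 2 h after the preference test. The comparisons ask whether cocaine moved a miRNA in this tissue and whether methionine, a methyl donor, moved it with or without the drug.

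miRNAs of one family share the bases next to the 5′ end of the mature strand. This stretch, the seed, pairs with matching letters in target mRNAs and lowers their stability and translation. The miR-15 and miR-16 family is known for holding back the cell cycle and for promoting cell death, through targets such as the cyclins Ccnd1 and Ccne1 and the survival factor Bcl2. miR-195 and miR-497 are known for the exit of heart muscle cells from the cell cycle after birth. Levels of these miRNAs in bulk tissue cannot tell apart fewer cells of a type and less RNA per cell.

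The mature sequences are shown because the shared seed defines the family and because the bases behind it are what separated one member from another in counting. RefSeq sequences were found for 5 of 5 members (GRCm38.p6), and the capitals mark the seed, bases 2 to 8 from the 5′ end.
miR-15a-5p: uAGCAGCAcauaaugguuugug
miR-15b-5p: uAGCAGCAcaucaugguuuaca
miR-16-5p: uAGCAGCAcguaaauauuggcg
miR-195a-5p: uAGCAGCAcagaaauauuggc
miR-497a-5p: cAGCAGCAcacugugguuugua
All 5 carried the seed AGCAGCA, as did 10 of 1679 mature mouse miRNAs in that table (0.596%). miR-195a-5p differed from miR-16-5p at 2 of 21 positions compared (G10A and U11G, the base of miR-16-5p first, counted from the 5′ end). miR-15b-5p differed from miR-15a-5p at 4 of 22 positions (A12C, G20A, U21C and G22A). miR-497a-5p was the most distant from miR-16-5p, with 11 of 22 positions identical. Since how reads that fit 2 members were assigned is not given in the sources used here, the split between miR-16-5p and miR-195a-5p is uncertain to that extent.

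The 5 members come from 3 clusters of paired hairpins. On GRCm38.p6 coordinates, miR-15a-5p lies at chr14:61632075-61632096 and 1 copy of miR-16-5p at chr14:61631936-61631957, both on the minus strand. Both sit in introns of the noncoding gene Dleu2, inside 8 of its transcripts and over 0 of its exons (GENCODE M21). miR-15b-5p at chr3:69009775-69009796 and the other miR-16-5p copy at chr3:69009918-69009939 are on the plus strand in introns of Smc4, which encodes a condensin subunit. miR-497a-5p at chr11:70234730-70234751 and miR-195a-5p at chr11:70235062-70235082 are on the plus strand and overlapped no other annotated gene. The mature 5p sequences of a pair are 117 bases apart for miR-15a and miR-16, 121 bases for miR-15b and miR-16, and 310 bases for miR-497a and miR-195a. Since both hairpins give the same miR-16-5p, its counts cannot be divided between Dleu2 and Smc4 from the 5p arm.

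Library totals, in units of 1000000 counts, ran from 7.77 to 11.1, and of these counts 56.1% to 67.9% were miRNA. At these depths 3 counts corresponded to 0.271 to 0.386 CPM (counts per 1000000 counts of the library). The brain miRNA miR-124-3p was at 30002 to 176336 CPM in the 12 libraries. Clustering of 124 families of miRNA precursor reads, with those of mir-15, mir-16, mir-195 and mir-497 left out, placed the libraries in 3 sets. SS replicate 12 and CS replicates 8 and 9 formed set A, CS replicate 10 and MC replicates 16 and 17 formed set C, and the other 6 formed set B. The labels do not name these sets, and they cross the groups unevenly: MS lay wholly in set B, and no SS library was in set C. MC replicate 16 also stood apart in its normalization, with the lowest TMM factor (0.675, against 0.826 to 1.26 elsewhere). Values of miR-15b are therefore given by set.

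miR-16-5p was by far the most abundant member and miR-15b-5p the least, in 12 of 12 libraries each. Over the 12 libraries, miR-16-5p averaged 4766 ± 1490 CPM (SD, n = 12), which placed it at rank 27 of 1374 known mature miRNAs. It contributed 85.9% ± 3.29 (SD, n = 12) of the family's counts. miR-15a-5p followed at 268.9 ± 83.95 CPM (rank 119), miR-497a-5p at 252 ± 68.8 CPM (rank 123), miR-195a-5p at 200.2 ± 118 CPM (rank 134) and miR-15b-5p at 42.8 ± 32.2 CPM (rank 232). The middle 3 did not keep a fixed order: miR-15a-5p was above miR-497a-5p in 8 of 12 libraries and above miR-195a-5p in 10, and miR-195a-5p was above miR-497a-5p in 3. Their spreads overlapped, whereas miR-16-5p was 10.3 to 23.2 times miR-497a-5p in every library.

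**Figure D1:**
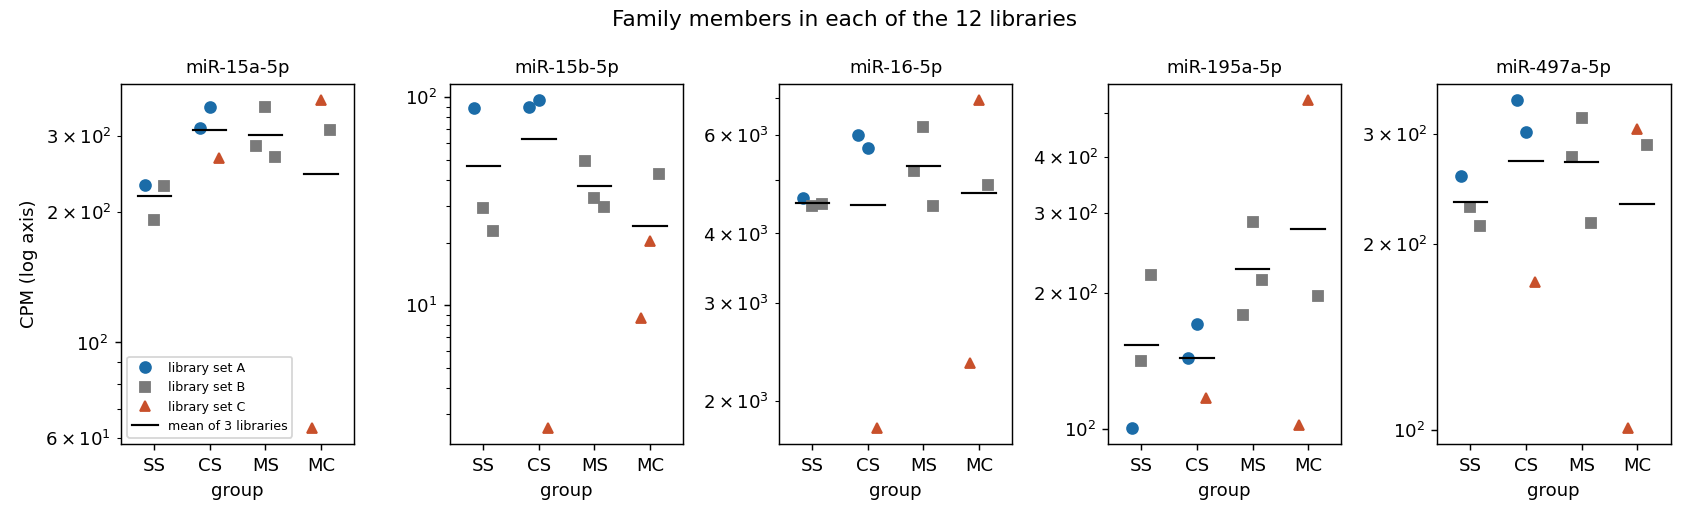
CPM (log axis, a separate scale in each panel) of the 5 family members, by group, with 1 point per library, a mark and colour for each library set and a line at the mean of 3 libraries. miR-16-5p lies far above the others, the SS libraries of miR-15a-5p (191.5 to 231.5) lie under those of CS and MS (with TMM scaling CS overlaps SS), and miR-15b-5p is sorted by library set.

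In CPM miR-16-5p was nearly constant in SS (SD 80.4, n = 3), and it varied most in the cocaine groups. With TMM scaling the SD in SS was 371 CPM, close to the 358 CPM of MS. Its levels were 4634, 4478 and 4524 CPM in SS, 6020, 5686 and 1791 CPM in CS, 5181, 6213 and 4487 CPM in MS, and 2343, 6946 and 4891 CPM in MC. The wide ranges of CS and MC came from CS replicate 10 and MC replicate 16, the 2 lowest libraries. Both are in set C, which held no SS or MS library. The other CS and MC libraries (4891 to 6946 CPM) lay above all of SS and overlapped MS, but this was lost with TMM scaling. CS replicate 8 (4768 CPM) then fell below SS replicates 12 and 13 (5117 and 5419 CPM). MC replicate 20 (4159 CPM) then fell below all of SS. With edgeR's quasi-likelihood test, the log2 fold change was −0.33 (SE 0.34, adjusted p = 0.994) for CS vs SS, −0.04 (SE 0.34, adjusted p = 0.991) for MS vs SS and 0.16 (SE 0.34, adjusted p = 0.864) for MC vs CS. None of these differed beyond the spread between libraries, and the 95% interval for CS vs SS ran from −1.07 to 0.41.

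miR-15a-5p, the partner of miR-16-5p in Dleu2, was lower in every SS library than in any CS or MS library. It was at 231.5, 191.5 and 230.1 CPM in SS, 313.6, 350.7 and 266.4 CPM in CS, 285.5, 351.0 and 268.7 CPM in MS, and 63.5, 363.7 and 310.6 CPM in MC. Groups without overlap in CPM were common: 13.2% of the 780 miRNAs tested had them for CS vs SS and 22.8% for MS vs SS, so 1 of 5 members in each is near the background. With TMM scaling, CS replicate 8 (248 CPM) fell below SS replicate 12 (256 CPM) and the separation from CS was lost. That from MS stayed, and on this scale 23.5% of miRNAs had MS and SS groups without overlap.

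The fitted log2 fold changes of miR-15a-5p were 0.26 (SE 0.36, adjusted p = 0.994) for CS vs SS and 0.22 (SE 0.36, adjusted p = 0.901) for MS vs SS. For MC vs CS the value was −0.38 (SE 0.36, adjusted p = 0.651), and it was 0.01 without MC replicate 16, so that library alone set it. In CPM the summed level of 5 red blood cell miRNAs also kept SS apart. It was 1517 to 2232 CPM in SS, 2400 to 2687 CPM in CS and 2587 to 3992 CPM in MS. miR-451a was its main component, and none of the 5 was at 0 everywhere. The rest of the list overlapped between SS and CS, and miR-486a-5p and miR-486b-5p also between SS and MS. This sum was not TMM-scaled, and CS replicate 8 had the highest TMM factor (1.26). In MC replicate 16 this sum was 465 CPM, and the sum of 4 miRNAs of endothelium and vessel wall was 3787 CPM against at least 9742 CPM elsewhere. Within these lists miR-486b-5p (77.6 CPM) was at its highest there, and miR-145a-5p (39.4 CPM) was near its median (39.8 CPM). Outside them, miR-9-5p (15389 CPM), miR-137-3p (364 CPM), miR-219a-5p (73.5 CPM) and miR-338-3p (31.3 CPM) were also at their lowest in that library. miR-219a-2-3p (856 CPM) was at its highest. The part of blood and vessel content in the miR-15a-5p values was not tested.

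miR-15b-5p, from the Smc4 intron, followed the library sets and not the treatment groups. It stood at 88.6, 29.4 and 22.7 CPM in SS, 89.5, 97.0 and 2.57 CPM in CS, 49.4, 32.8 and 29.5 CPM in MS, and 8.62, 20.3 and 42.8 CPM in MC. The 3 libraries of set A held 88.6 to 97.0 CPM, the 6 of set B 22.7 to 49.4 CPM and the 3 of set C 2.57 to 20.3 CPM, with no overlap between sets. The sets were drawn from miRNA precursor reads of these same libraries. How large a share of all miRNAs also separated by set was not counted, so this is a description of miR-15b-5p only. The value in CS replicate 10 rested on 21 counts. A sum of 3 oligodendrocyte miRNAs was higher in set A (1470 to 1733 CPM) than in set B (392 to 1283 CPM). Its range in set C (934 to 1527 CPM) overlapped that of set A. Of the 3, miR-219a-5p alone kept sets A and B apart. miR-219a-2-3p was at 616 CPM in SS replicate 13 (set B) and 593 CPM in CS replicate 8 (set A). miR-338-3p was at 240 CPM in MS replicate 4 (set B) and 188 CPM in SS replicate 12 (set A). The part of this sum in the miR-15b-5p values was not tested.

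Between groups, the log2 fold change of miR-15b-5p was 0.09 (SE 0.90, adjusted p = 0.995) for CS vs SS, −0.57 (SE 0.90, adjusted p = 0.901) for MS vs SS and −1.32 (SE 0.91, adjusted p = 0.616) for MC vs CS in edgeR. The SE was over 2 times that of any other member. Within set B the 2 SS libraries (29.4 and 22.7 CPM) lay below the 3 MS libraries (49.4, 32.8 and 29.5 CPM), opposite in sign to the pooled value, but with TMM scaling SS replicate 13 (35.6 CPM) lay above MS replicates 4 and 23 (27.6 and 29.9 CPM). Within set C the single CS library (2.57 CPM) lay below both MC libraries (8.62 and 20.3 CPM), again opposite to the pooled value. With the set as a covariate the log2 fold changes became −0.86 for CS vs SS, 0.43 for MS vs SS and 1.77 for MC vs CS, with adjusted p of 1.00, 0.850 and 0.955.

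miR-195a-5p had the smallest unadjusted p of the family, in MC vs CS. It was at 100.4, 140.8 and 219.4 CPM in SS, 143.6, 170.6 and 116.8 CPM in CS, 178.7, 286.7 and 213.2 CPM in MS, and 101.8, 534.4 and 196.3 CPM in MC. MC held both the highest library of all, replicate 17, and 1 of the lowest, replicate 16, so MC overlapped every other group. Of the 3 MS libraries, 2 were within the range of SS and 1 was above it.

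For MC vs CS the log2 fold change of miR-195a-5p was 0.95 (SE 0.43, 95% interval 0.01 to 1.88), with an unadjusted p of 0.0479 and an adjusted p of 0.577 in edgeR. In that comparison 7.44% of miRNAs tested had an unadjusted p under 0.05, and this was 1 of 5 members. Without MC replicate 17 the value was 0.25, so 1 library carried most of it, and without MC replicate 16 it was 1.24. The main effect of methionine, averaged over both cocaine states, was 0.63 (SE 0.30, adjusted p = 0.391). For CS vs SS and MS vs SS the values were −0.34 (SE 0.42, adjusted p = 0.994) and 0.31 (SE 0.42, adjusted p = 0.881).

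miR-497a-5p, made from the same cluster as miR-195a-5p, was the steadiest member over all libraries relative to its mean (SD 27.3% of the mean, n = 12). It was at 257, 229 and 213 CPM in SS, 341, 302 and 173 CPM in CS, 276, 319 and 216 CPM in MS, and 101, 306 and 288 CPM in MC. As for miR-16-5p, the lowest values were those of CS replicate 10 and MC replicate 16, and the ranges of all groups overlapped. The log2 fold changes were −0.07 (SE 0.28, adjusted p = 0.994) for CS vs SS, −0.05 (SE 0.28, adjusted p = 0.990) for MS vs SS and −0.18 (SE 0.28, adjusted p = 0.784) for MC vs CS. The 95% interval for CS vs SS, −0.68 to 0.54, was the narrowest of the family, so a doubling or halving of miR-497a-5p lay outside it.

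**Figure D2:**
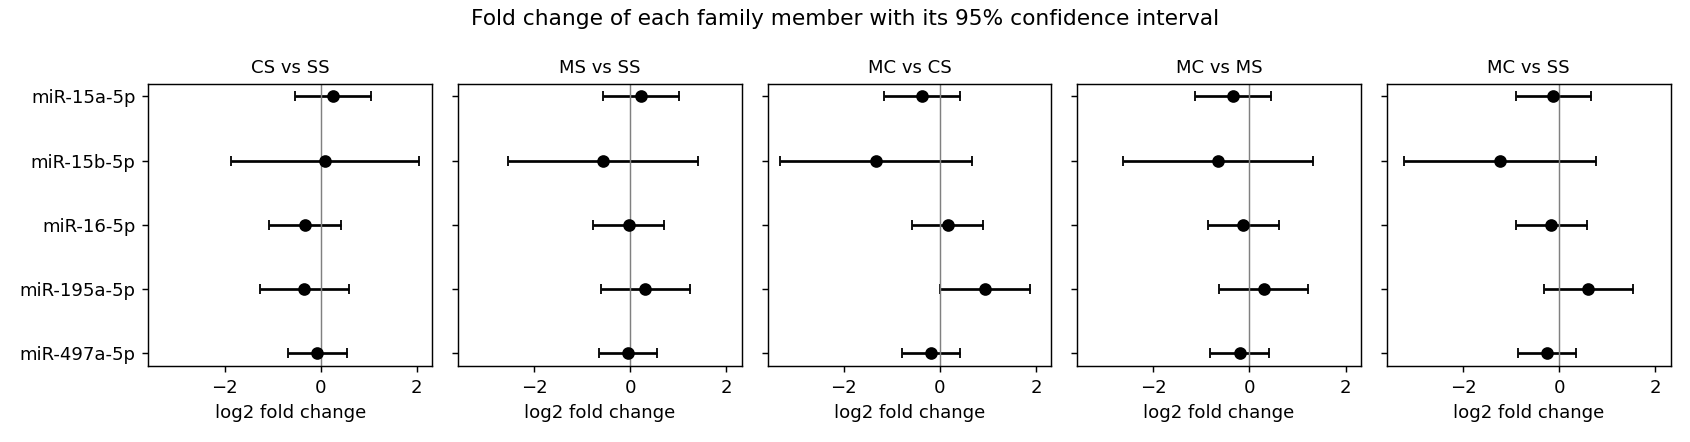
Log2 fold changes from edgeR (points) with their 95% confidence intervals (bars) for the 5 family members in 5 pairwise comparisons of 3 libraries each, the first-named group over the second. Every interval spans 0 except that of miR-195a-5p in MC vs CS (0.01 to 1.88), whose adjusted p is 0.577, and the intervals of miR-15b-5p are the widest.

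Across the 9 comparisons (5 between pairs of groups, the main effects of cocaine and of methionine, their interaction, and any difference among the 4 groups), edgeR called 0 of the 5 members at an adjusted p of at most 0.05. It called 0 of the 780 miRNAs as well, a background of 0.0% in each comparison. At an unadjusted p under 0.05 the counts over all miRNAs were 22 for CS vs SS (2.82%), 75 for MS vs SS (9.62%), 58 for MC vs CS (7.44%), 65 for MC vs MS (8.33%) and 104 for MC vs SS (13.3%). They were 25 for the cocaine main effect (3.21%), 103 for the methionine main effect (13.2%), 34 for the interaction (4.36%) and 59 for any difference (7.56%). Among the members, that p was under 0.05 once in the 9 comparisons, for miR-195a-5p in MC vs CS. DESeq2 also called 0 members in each comparison, with a smallest adjusted p of 0.305, while over all miRNAs it called 19 for MS vs SS, 5 for MC vs SS, 17 for the methionine main effect, 12 for any difference and 0 in the others.

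The family's median log2 fold change was −0.07 beside 0.03 for all miRNAs tested in CS vs SS, and −0.04 beside −0.03 in MS vs SS. With MC it lay further below that of all miRNAs, at −0.18 beside 0.08 for MC vs CS, −0.21 beside 0.05 for MC vs MS and −0.17 beside 0.14 for MC vs SS. These medians describe members that differed widely, from −1.32 to 0.95 in MC vs CS. They also leaned on MC replicate 16: without it, MC vs CS was 0.013 for miR-15a-5p and 0.057 for miR-497a-5p. In the interaction, which asks whether methionine changed the effect of cocaine, the members ran from −0.75 to 0.63 with a smallest adjusted p of 0.826. MC vs MS and MC vs SS had smallest adjusted p of 0.789 and 0.561 among the members. Since CS and MS share the SS libraries as controls, and MC vs CS shares CS with CS vs SS, these comparisons are not independent of one another.

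As a share of all miRNA counts, the family made up 0.793% ± 0.0455 in SS, 0.829% ± 0.387 in CS libraries, 0.978% ± 0.206 in MS libraries and 0.927% ± 0.442 in MC (SD, n = 3 each). The single-library extremes were 0.386% in CS replicate 10 (95% Wilson interval 0.381 to 0.392, which covers counting error only) and 1.35% in MC replicate 17. The group means differed by less than the spread within CS or MC. In CS replicate 10 miR-16-5p fell to 76.2% of the family's counts, the lowest share of any library, with miR-15a-5p at 266.4 CPM and miR-16-5p was at 1791 CPM.

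Ratios between members within a library do not depend on how libraries are scaled. The ratio of miR-15a-5p to miR-16-5p was 0.0428 to 0.0635 in 10 libraries, 0.149 in CS replicate 10 and 0.0271 in MC replicate 16. Its group means on the log2 scale were −4.39 ± 0.14 in SS, −3.68 ± 0.81 in CS libraries, −4.13 ± 0.06 in MS libraries and −4.48 ± 0.64 in MC, and no difference was detected (exact permutation F test over 369600 groupings, p = 0.329, adjusted p = 0.384 over 7 ratios). The 2 libraries at the ends, both in set C, thus departed from the rest in opposite directions.

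The ratio of miR-15b-5p to miR-16-5p had no detected difference between groups (exact permutation p = 0.822, adjusted p = 0.822). On the log2 scale it lay from −6.07 to −5.71 in set A, from −7.63 to −6.71 in set B and from −9.41 to −8.07 in set C, so the separation of the sets was also present within libraries. The ratio of miR-195a-5p to miR-497a-5p, the pair on chr11, was 0.391, 0.615 and 1.03 in SS, 0.421, 0.564 and 0.674 in CS libraries, 0.647, 0.899 and 0.988 in MS libraries, and 1.01, 1.75 and 0.681 in MC. Both methionine groups lay toward the upper end, but the exact permutation test over the 4 groups gave p = 0.215 and an adjusted p of 0.369.

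**Figure D3:**
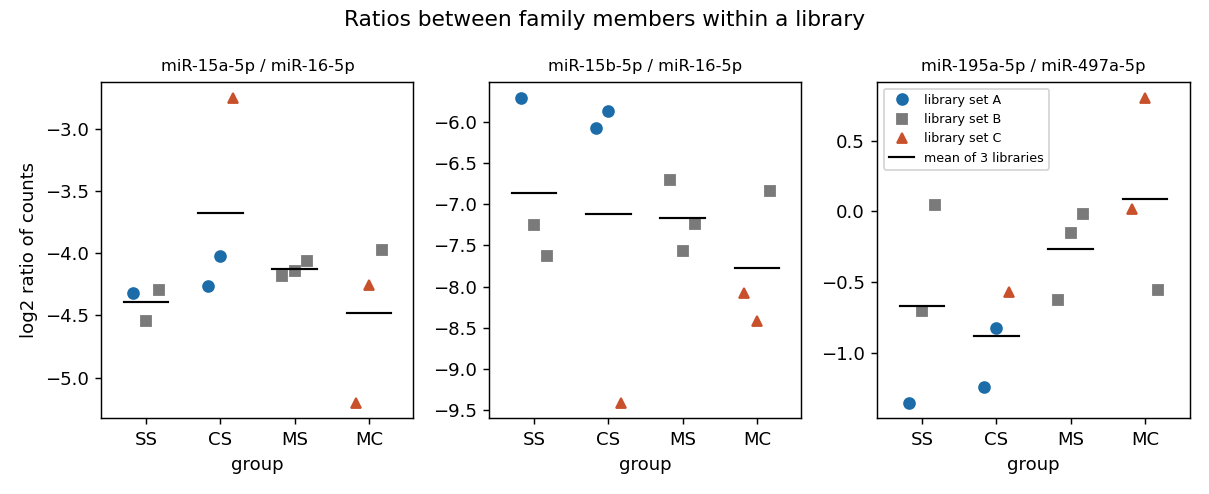
Log2 ratios of counts between family members within a library (a separate scale in each panel), by group, with 1 point per library marked by its library set and a line at the mean of 3 libraries. In the middle panel the sets do not overlap (set A from −6.07 to −5.71, set C from −9.41 to −8.07), while the groups do.

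The 3p arms, the strands of the hairpin that are mostly discarded, were scarce. miR-195a-3p was at 1.63 to 6.02 CPM, miR-15a-3p at 0.13 to 1.99 CPM, miR-15b-3p at 3.47 ± 0.32 CPM in set A (SD, n = 3) and 0.00 to 1.09 CPM in the other sets, and miR-497a-3p at 0.00 to 1.35 CPM. The 3p arms that would tell the 2 miR-16 hairpins apart, miR-16-1-3p and miR-16-2-3p, had at most 1 and 4 counts in any library and were not tested. Neither cluster could therefore be named as the main source of miR-16-5p at this depth.

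miR-15a had the smallest p of the 4 hairpins tested for a shift between arms. The ratio of miR-15a-5p to miR-15a-3p was 123, 93.8 and 155 in SS, 280, 244 and 132 in CS libraries, 190, 227 and 136 in MS libraries, and 329, 645 and 295 in MC. Each MC library was above the other 9, which held for 0.909% of 220 hairpins with both arms tested. The exact permutation F test gave p = 0.0124, with 7.27% of those hairpins under 0.05, an adjusted p of 0.0868 over the 7 ratios of the family and 0.455 over all 220 hairpins.

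The MC values of this ratio rested on 1, 4 and 11 counts of miR-15a-3p, against 9 to 20 in the other libraries. Without CS replicate 10 the adjusted p over 7 ratios was 0.0182, and with a pseudocount of 1 in place of 0.5 it was 0.128. In edgeR the log2 fold change of miR-15a-3p itself was −1.86 (SE 0.52, unadjusted p = 0.00402, adjusted p = 0.370) for MC vs SS and −1.37 (SE 0.52, adjusted p = 0.577) for MC vs CS. It was below SS (1.44 to 1.99 CPM) in all 3 MC libraries, but also in CS replicates 8 and 9 (1.06 and 1.38 CPM). It was not called at the threshold, and the share of all miRNAs with MC wholly below SS was not counted. The summed level of 6 miRNAs of neurons and neural tissue was 103236 to 145921 CPM in MC, below all of SS (179876 to 271149 CPM). It overlapped CS (139028 to 244778 CPM) and MS (123571 to 254242 CPM), and none of the 6 was at 0 everywhere. Of these, miR-124-3p was at 33187 to 46349 CPM in MC and 70274 to 176336 CPM in SS. It was as low in CS replicate 8 (30002 CPM) and MS replicate 4 (35552 CPM). miR-138-5p went the other way, at 21923 to 27770 CPM in MC and 16790 to 20373 CPM in SS. The rest of the list overlapped between MC and SS, and the part of these levels in the MC values was not tested.

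For the other arms no difference between groups was detected in the same test. Adjusted p was 0.369 for miR-15b, 0.369 for miR-195a and 0.203 for miR-497a (exact permutation). miR-497a-3p had 2, 0 and 1 counts in SS, 4, 3 and 4 counts in CS, 7, 10 and 14 counts in MS, and 0, 10 and 6 in MC. The counts were highest in MS, and the adjusted p in edgeR for MS vs SS was 0.336. miR-195a-5p and miR-195a-3p went apart in MC replicate 17, where the ratio was 316 against 19.4 to 64.2 in the other 11 libraries.

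**Figure D4:**
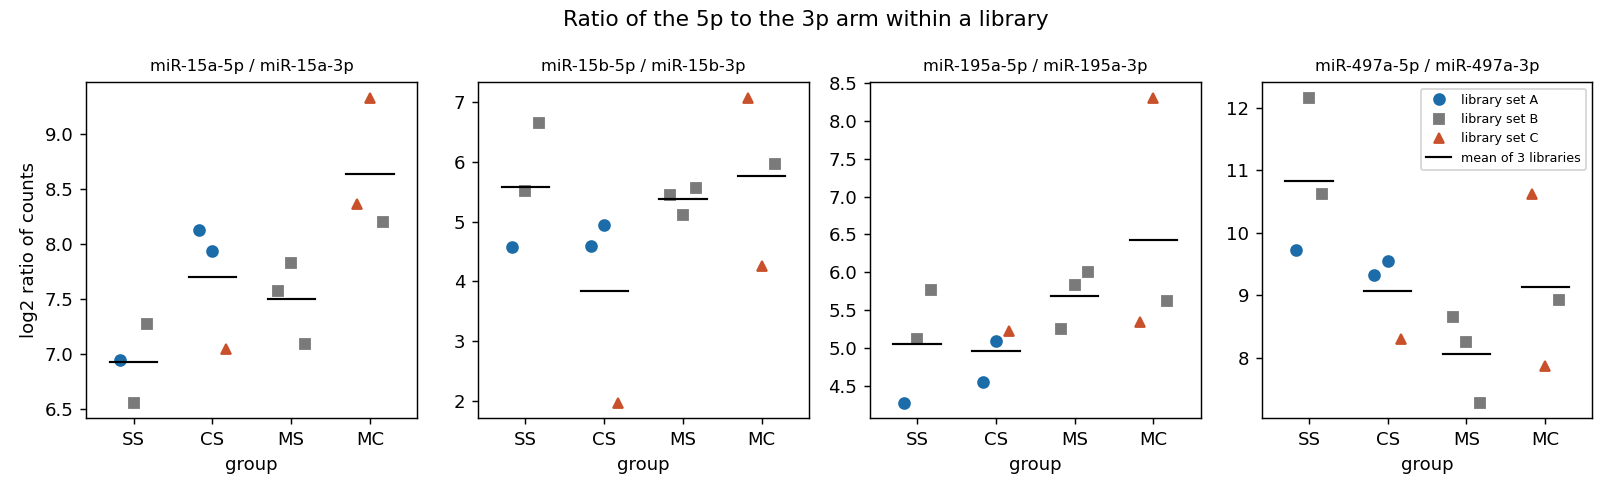
Log2 ratio of 5p to 3p counts within a library for 4 hairpins of the family (a separate scale in each panel), by group, with 1 point per library marked by its library set and a line at the mean of 3 libraries. For miR-15a the MC libraries lie above the other 9, on 1, 4 and 11 counts of the 3p arm, and for miR-195a MC replicate 17 lies apart.

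Beyond the 5 members, the seed AGCAGCA is carried by miR-322-5p (the mouse counterpart of human miR-424), miR-195b, miR-6342, miR-6353 and miR-6419, and miR-503-5p differs from it in the last seed base. miR-322-5p and miR-503-5p, which are neighbours on chromosome X, are shown because they are the relatives that were measured.
miR-322-5p: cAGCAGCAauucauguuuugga
miR-503-5p: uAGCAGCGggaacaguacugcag
miR-322-5p was more abundant than every member but miR-16-5p, on average 577 ± 249 CPM (SD, n = 12). It was at 682, 554 and 696 CPM in SS, 1014, 875 and 247 CPM in CS, 595, 623 and 400.0 CPM in MS, and 91.8, 585 and 567 CPM in MC. The lowest libraries were again MC replicate 16 and CS replicate 10. Its log2 fold change was −0.94 (SE 0.49, adjusted p = 0.435) for MC vs SS and −0.17 (SE 0.49, adjusted p = 0.994) for CS vs SS. miR-503-5p was at 1.03 to 3.44 CPM with no call, and the other 4 were listed in no library.

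Some reads were assigned to precursor families in place of mature strands. The mir-16 precursor family held 9828 counts in all, at 38.2 to 160 CPM, equal to 1.29% to 2.86% of the miR-16-5p counts of the same library. The mir-15 precursor family held 15 counts in 5 libraries. Both were therefore small beside the mature strands.

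A wider list of 18 miRNAs known to restrain the cell cycle (of the let-7, miR-34, miR-26, miR-449 and miR-29 families) was tested in full. In the 9 comparisons edgeR called 0 of 18 higher and 0 lower, as for all miRNAs. At an unadjusted p under 0.05 the count was 6 of 18 for MC vs SS, where 13.3% of all miRNAs passed, and 5 of 18 for MS vs SS, where 9.62% did. It was 4 for the methionine main effect (13.2% of all miRNAs), 3 for MC vs MS (8.33%) and 2 for any difference (7.56%). For MC vs CS (7.44%) and the interaction (4.36%) it was 1, and for CS vs SS (2.82%) and the cocaine main effect (3.21%) it was 0. Many of the 18 share a family and the comparisons share libraries, so these are not independent results. The list's median log2 fold change was 0.10 for MC vs SS, beside 0.14 for all miRNAs, and −0.31 for MS vs SS, beside −0.03.

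Over the 12 libraries the members did not move as 1 unit. miR-16-5p and miR-497a-5p went together (log2 TMM-scaled CPM, Pearson r = 0.73, permutation p = 0.0200, adjusted over 10 pairs 0.0667; Spearman rho = 0.76, permutation p = 0.00523, adjusted 0.0261). Without the 2 libraries farthest from the median of miR-16-5p r was 0.61, and within the 6 libraries of set B it was 0.70. miR-15a-5p and miR-497a-5p gave r = 0.73 (permutation p = 0.0313, adjusted 0.0782) but rho = 0.21 (permutation p = 0.512, adjusted 0.605), and r was −0.13 without the 2 libraries farthest from the median of miR-15a-5p, so the relation rested on those.

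The Dleu2 pair miR-15a-5p and miR-16-5p had r = 0.26 (permutation p = 0.247, adjusted 0.412) and rho = 0.41 (permutation p = 0.185, adjusted 0.410), and r was −0.11 without the 2 farthest libraries and −0.05 in set B. The chr11 pair miR-195a-5p and miR-497a-5p had r = 0.10 (permutation p = 0.728, adjusted 0.728) and rho = −0.20 (permutation p = 0.545, adjusted 0.605), and r was 0.17 without the 2 farthest libraries and −0.43 in set B. The pairs with miR-195a-5p other than this had r of 0.24 with miR-15a-5p and 0.43 with miR-16-5p (permutation adjusted p = 0.472 and 0.297). Over the 12 libraries miR-15b-5p had r = 0.75 with miR-497a-5p (permutation p = 0.00717, adjusted 0.0506) and rho = 0.84 (permutation p = 0.00112, adjusted 0.0112). Without the 2 libraries farthest from the median of miR-15b-5p that r was 0.71. With miR-16-5p, its partner in Smc4, r was 0.77 (permutation adjusted p = 0.0506), rho was 0.40 (adjusted 0.410) and r without those 2 libraries was 0.37. Its r was 0.25 with miR-15a-5p and −0.19 with miR-195a-5p (permutation adjusted p = 0.472 and 0.596). The values of miR-15b-5p fall into the 3 library sets, so r is also given within set B (n = 6). There it was 0.11 with miR-16-5p, 0.19 with miR-15a-5p, 0.58 with miR-497a-5p and −0.81 with miR-195a-5p.

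Among 344 miRNAs with a mean of at least 10 CPM, the 3 with the most similar course over the 12 libraries were named for each member by Pearson r, as a description. For miR-15a-5p they were miR-29b-3p (0.95), miR-338-3p (0.95) and miR-33-5p (0.93), with r of 0.65, 0.91 and 0.59 within set B and 0.74, 0.65 and 0.49 without the 2 farthest libraries. For miR-497a-5p they were miR-322-5p (0.91), miR-219a-5p (0.90) and miR-455-5p (0.89), and r was 0.28, 0.42 and 0.69 within set B and 0.55, 0.63 and 0.61 without the 2 farthest libraries. The nearest to miR-195a-5p were miR-30e-5p (0.81), miR-377-3p (0.79) and miR-500-3p (0.77), with 0.64, 0.59 and 0.89 within set B and 0.60, 0.68 and 0.37 without the 2 farthest libraries.

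For miR-15b-5p the nearest were miR-194-5p (0.87), miR-25-3p (0.83) and miR-542-5p (0.81), with 0.87, 0.77 and 0.84 within set B and 0.78, 0.82 and 0.86 without the 2 farthest libraries. For miR-16-5p they were miR-194-5p, miR-15b-5p and miR-497a-5p, with r of −0.01, 0.11 and 0.70 within set B and −0.56, −0.03 and 0.61 without the 2 farthest libraries. All of these values share their 12 libraries and their scaling, and MC replicate 16 was the lowest library for miR-15a-5p, miR-497a-5p and miR-322-5p alike.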

How the data were processed

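Small RNA of 12 prefrontal cortex libraries, each from 2 pooled mice, was sequenced by the study as 50-nt single-end reads. Its methods describe removal of poor reads and of those shorter than 16 nt, mapping with AASRA and alignment of remaining reads to piRBase with Bowtie (1 mismatch), and the submitters' processing notes name mm10 and Bowtie. The files deposited by the authors held, per feature, the read count and a TPM value. The deposited TPM equalled the count divided by the library total and multiplied by 1000000, within 0.005, and only counts were used.

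The members, gene lists and comparisons were chosen with earlier results of these data known. Tests covered the 780 miRNAs (of 1374 known mature and 48 predicted) that reached 5 counts in 3 or more libraries. edgeR 4.0.16 (R 4.3.3; quasi-likelihood test, TMM factors from miRNAs, library size from all counts, 1 coefficient per group) gave Benjamini-Hochberg adjusted p-values, with a call at 0.05 or less. DESeq2 1.42.0 was an alternative. Levels are CPM of the library total. Ratios used log2 with a pseudocount of 0.5 counts, and correlations log2 TMM-scaled CPM. Exact permutation tests were two-sided in effect (F statistic). Permutation p of correlations came from random draws and were two-sided. With 3 libraries per group, p-values measure the spread between pools of animals. No 2 libraries agreed within sampling noise (66 pairs). Scripts were tested on simulated data. Tables and figures were made in Python 3.11.15 with scipy 1.17.1, numpy 2.4.6, matplotlib 3.10.9 and pandas 2.3.3.

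Named miRNAs were, by rule, the 5 members, other miRNAs of the seed with miR-503-5p, the 3p arms, the precursor families, and the 3 nearest miRNAs of each member. Statements on single libraries and on the 220 hairpins were chosen after the values were seen. Leukocyte, neuron, choroid plexus and striated muscle miRNA lists were also summed, with ranges over the 12 libraries of 1042 to 2747, 103236 to 271149, 25.4 to 346 and 27.0 to 87.4 CPM.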

Additional observations from a re-analysis of the deposited data

How the results depend on the processing

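No paired analysis was possible because the labels give the groups different replicate numbers. Under DESeq2, other scaling and other filters the 5 members stayed at 0 calls in all 9 comparisons. The same held for known miRNAs alone, the library set as a covariate and each library left out. With the compared groups alone, only the 5 pairwise comparisons were run, also with 0 calls. A fold limit, not applied to any difference among the 4 groups, likewise left 0 calls. The smallest adjusted p of a member under any alternative was 0.155. Over all miRNAs DESeq2 called 19 for MS vs SS, 5 for MC vs SS, 17 for the methionine main effect and 12 for any difference, where edgeR called 0. Without MC replicate 16 edgeR called 7, 2, 19 and 3, and with the compared groups alone 3 for MS vs SS. The cause was not tested.

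Of 300 recomputed fold changes of the members, 28 turned sign, none past the threshold, and 6 of 15 never turned. With the library set as a covariate, miR-15b-5p turned to −0.86 (CS vs SS), 0.43 (MS vs SS) and 1.77 (MC vs CS), miR-16-5p to 0.12 (MS vs SS), and miR-497a-5p to 0.036 (MS vs SS) and 0.10 (MC vs CS). Without TMM, miR-497a-5p turned to 0.22 (CS vs SS) and 0.21 (MS vs SS) and miR-16-5p to 0.22 (MS vs SS). With TMM from all features, miR-16-5p was 0.013 and miR-497a-5p 0.0051 (MS vs SS), and with at least 10 counts 0.030 and 0.018. With 1 library left out, MC vs CS ran from −0.69 to 0.013 for miR-15a-5p, −0.17 to 0.44 for miR-16-5p and −0.34 to 0.057 for miR-497a-5p. CS vs SS ran from −0.55 to 0.90 for miR-15b-5p and −0.22 to 0.070 for miR-497a-5p. MS vs SS ran from −0.96 to 0.26 for miR-15b-5p, −0.12 to 0.043 for miR-16-5p and −0.18 to 0.032 for miR-497a-5p.

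The adjusted p of the miR-15a arm ratio ran from 0.0182 (without CS replicate 10) to 0.254, and adjustment over 220 hairpins, an alternative chosen after seeing the data, gave 0.455. Without TMM, r was 0.90 for miR-15a-5p with miR-497a-5p and 0.85 for miR-16-5p with miR-497a-5p, both then past the threshold. In set B r was −0.048 for miR-15a-5p with miR-16-5p and −0.43 for miR-195a-5p with miR-497a-5p. Without the 2 farthest libraries it was −0.11 for miR-15a-5p with miR-16-5p and −0.13 for miR-15a-5p with miR-497a-5p.

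With known mature miRNA counts as the smaller denominator of CPM, means in SS, CS, MS and MC were 333, 490.0, 482 and 413 for miR-15a-5p, 6937, 7054, 8453 and 7968 for miR-16-5p, and 356, 429, 431 and 391 for miR-497a-5p. They were 234, 227 and 363 for miR-195a-5p in SS, CS and MS, and 58.8 for miR-15b-5p in MS. TMM scaling moved SS means to 242 for miR-15a-5p, 5073 for miR-16-5p and 261 for miR-497a-5p. As a percentage of the TMM-scaled library total the family was 0.580 in SS and 0.572 in MS. Depth limits the 3p arms most, since 1 to 20 counts carry the miR-15a-3p values.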
